A study of Mus musculus with 24 samples.

Results

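Of 21960 transcripts counted in mouse forelimbs, 200 are described here because they carried the most ribosome footprints for their RNA in control limbs. They were chosen from group mean CPM, in which each count is scaled to the total of its library. A transcript had to reach 5 CPM in RNA and 20 CPM in ribosome-protected fragments (RPF) in control limbs, which 6573 transcripts did. The log2 change between control limbs and limbs with 1 deleted Rps6 allele, computed on mean CPM plus 0.5, had to stay under 0.25 in size in both RNA and RPF, which left 4997 transcripts after ENSMUST00000108658.9 was set aside by name. The 200 with the highest ratio of RPF CPM to RNA CPM in control limbs are called members below, and the 4797 that met the same limits with a lower ratio are called the other rows. The control levels, the control ratio and the change on Rps6 deletion with Trp53 intact therefore chose the members, and these values are given as a description without a test.

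The libraries came from forelimbs of embryos at stage E10.5, in 4 genotypes with 3 pools each, and every pool gave 1 RNA and 1 RPF library, 24 libraries in all. Control limbs were Rps6lox/+;Trp53+/+, written Rps6 WT, Trp53 WT. The other genotypes were Prx1Cre;Rps6lox/+;Trp53+/+ (Rps6 het, Trp53 WT), Rps6lox/+;Trp53-/- (Rps6 WT, Trp53 null) and Prx1Cre;Rps6lox/+;Trp53-/- (Rps6 het, Trp53 null). All groups, control limbs included, carried 1 floxed Rps6 allele. The Prx1Cre transgene drives Cre in mesenchymal cells of the limb bud, so other cells of the limb keep both Rps6 alleles, whereas Trp53 is missing from the whole embryo in the null genotypes. Each pool joined material of 2 embryos of the same genotype. In such whole-limb samples, fewer cells of a type and less RNA per cell cannot be told apart.

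A translating ribosome shields a short stretch of mRNA from RNase, and counting these fragments shows how many ribosomes sit on a transcript. Dividing by the RNA level gives a measure of ribosome load that is often called translational efficiency. The product of Rps6 belongs to the small subunit of the ribosome, and loss of such proteins is known to activate p53, the transcription factor encoded by Trp53. Going by how the table is named, footprints were counted within the coding sequence but RNA reads along the full transcript. A ratio thus compares a transcript with itself across genotypes, while between transcripts it also carries the share of the length that codes.

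Library totals were 14291854 to 29104669 counts in RNA and 7026056 to 16835045 in RPF, and 3 counts corresponded to at most 0.21 CPM in RNA and 0.427 CPM in RPF. The lowest count of a member in any library was 103 in RNA and 126 in RPF, so counting error was small: the counting SE of a member's control log2 ratio had a median of 0.036 and reached at most 0.081. The files do not pair the transcript IDs with names, and 0 IDs could be matched in the name tables used here. Members are therefore given by ID, with no statement of what they encode. Levels of Rps6 and Trp53, and of markers of limb cell types, could not be checked against the labels.

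Members were mostly of modest abundance in RNA. In control limbs their RNA level had a median of 37.6 CPM, with quartiles of 17.0 and 88.2 CPM and a range of 6.73 to 1479 CPM. Their RPF level had a median of 103 CPM, with quartiles of 53.2 and 273.2 CPM and a range of 20.4 to 3712 CPM. The other rows had more RNA, with a median of 74.8 CPM, and fewer footprints, with a median of 63.5 CPM. Of the members, 103 reached 100 CPM in RPF, 8 reached 1000 CPM and 47 were under 50 CPM. The 10 members with the most footprints carried 38.04% of the members' summed RPF level. Among the 200 transcripts of the whole table with the highest control RPF level, 9 were members. Members were 200 of all 21960 transcripts and 200 of the 6573 that met the level limits. Nothing is read from the 9, since the choice itself favoured a high control RPF level. Across members, Spearman's correlation of the ratio with the RNA level was -0.14, and it was -0.23 across all 4997 rows that met the limits. Both share the RNA libraries between their axes.

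**Figure D1:**
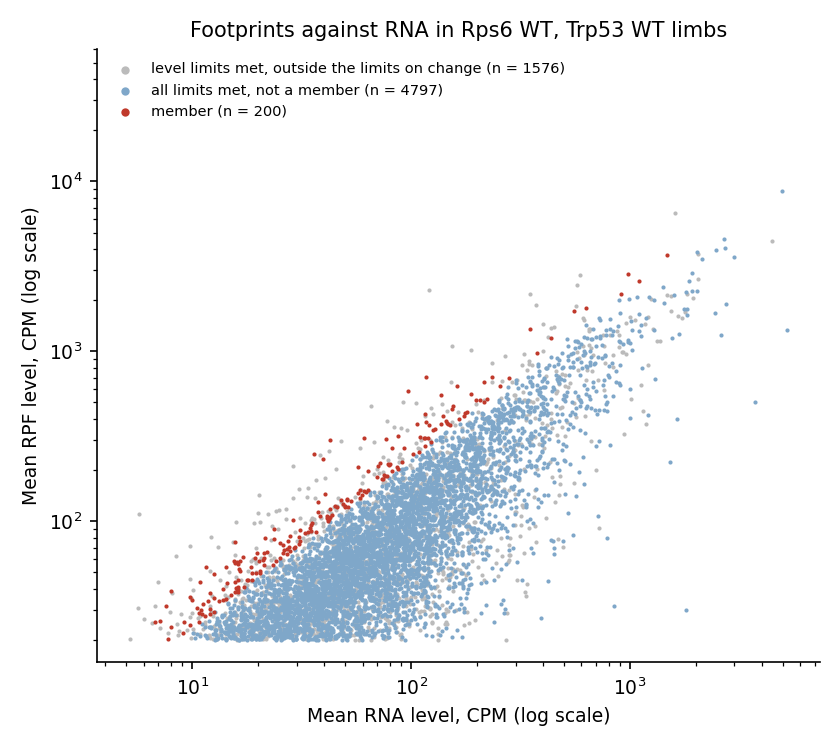
Mean RPF CPM against mean RNA CPM in Rps6 WT, Trp53 WT limbs, both on log axes, 1 point per transcript that met the level limits. The 200 members (red) form the upper edge of the 4797 other rows (blue), and grey points are transcripts with a change beyond the limits.

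The control ratio of members ran from 2.33 to 7.03, with a median of 2.65 and quartiles of 2.46 and 3.05. All rows that met the limits had a median of 1.04, so members stood 2.24-fold to 6.76-fold above it. The distribution was steep at the top and flat below: 6 members were above 5, 12 above 4 and 55 above 3. Around the threshold the values were nearly continuous. ENSMUST00000169020.7 at place 199 had a ratio of 2.332 and ENSMUST00000034703.14 at place 200 had 2.33, while ENSMUST00000000090.7 and ENSMUST00000034981.13 just outside had 2.328 and 2.327. The transcript set aside by name had a control ratio of 4.70 and did not meet the limits on change.

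The limits on change removed many transcripts with an equally high ratio. Of the 6573 transcripts that met the level limits, 372 had a control ratio at or above the threshold, and 171 of these (45.97%) lay outside the limits on change, against 23.98% of all 6573. Among the 171, the RNA change alone was outside the limit in 105, the RPF change alone in 33 and both in 33. Their RNA was above the upper limit in 128 and below the lower limit in 10. Among all 6573, RNA above and below the limits was about even, at 508 and 503. Nothing is read from these differences. The control RNA libraries entered both the ratio and the change, and a high ratio favoured a low RNA level in them. The members are thus the part of the high-ratio transcripts with a small change in Rps6 het, Trp53 WT limbs, not all of them.

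The transcript with the highest ratio was ENSMUST00000056110.14. In the control pools it had 47.1, 36.4 and 44.8 CPM in RNA and 292.5, 295.1 and 313.3 CPM in RPF, giving ratios of 6.22, 8.11 and 6.99. The ratios were 5.18, 6.67 and 5.25 in Rps6 het, Trp53 WT, then 4.88, 5.996 and 6.08 in Rps6 WT, Trp53 null, and 5.61, 5.53 and 7.30 in Rps6 het, Trp53 null. The control pools all lay above those of Rps6 WT, Trp53 null and overlapped with those of both Rps6 het genotypes. This transcript is shown for its control ratio, so nothing is read from control pools lying higher. Its RPF level varied less between control pools (SD 11.3 CPM around a mean of 300.3) than its RNA level did in proportion (SD 5.63 CPM around 42.7).

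ENSMUST00000166376.8, second by ratio, had the narrowest range over genotypes of the leading 5. Its control ratios were 6.71, 7.54 and 6.65, and its group ratios were 6.94, 6.39, 6.28 and 6.73 in the order Rps6 WT, Trp53 WT, then Rps6 het, Trp53 WT, then Rps6 WT, Trp53 null, then Rps6 het, Trp53 null. The pools of the 4 genotypes overlapped. In the same order ENSMUST00000060714.9 had group ratios of 6.02, 4.77, 5.09 and 5.25. ENSMUST00000131252.7 had 6.02, 4.95, 5.51 and 5.68. ENSMUST00000034363.6 had 5.85, 4.49, 4.25 and 4.91. For the last of these, the 3 control pools (5.08, 6.96 and 5.77) all lay above the 3 pools of Rps6 WT, Trp53 null (3.67, 4.595 and 4.63). Pool 2 of Rps6 het, Trp53 WT (6.13) and pool 3 of Rps6 het, Trp53 null (6.65) fell among the control pools. These members too are shown for their control ratio, so nothing is read from higher values in control limbs.

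**Figure D2:**
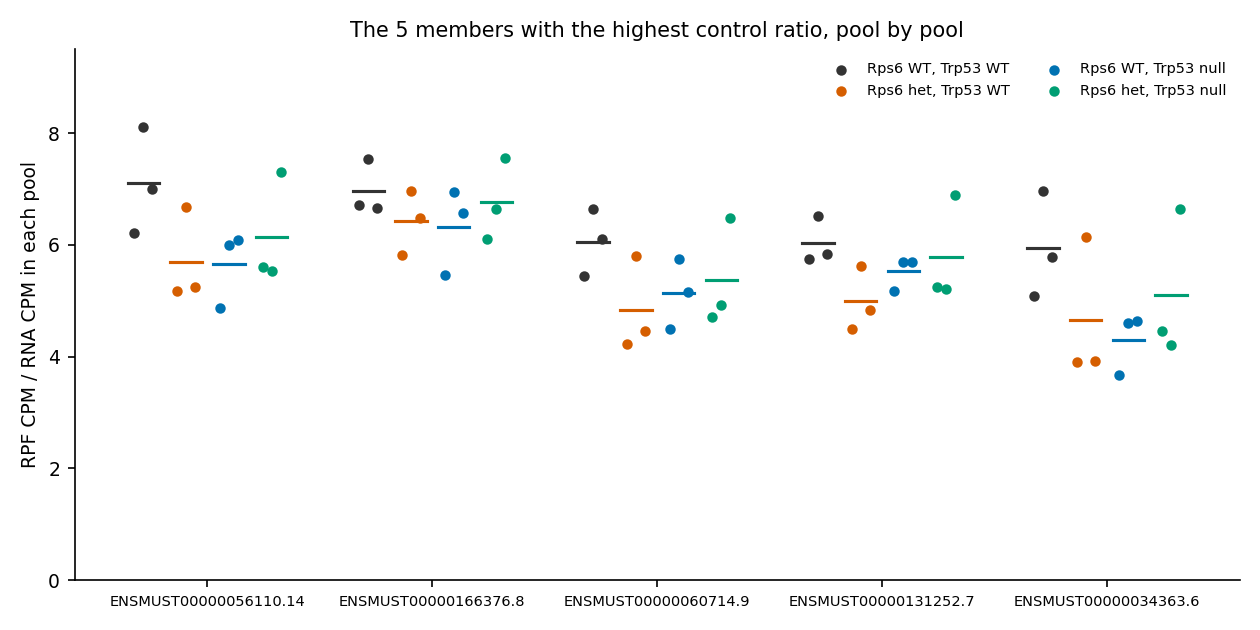
Ratio of RPF CPM to RNA CPM in each of 12 pools for the 5 members with the highest control ratio, with points for pools 1 to 3 from left to right and a bar for their mean, coloured by genotype. Pool 2 of Rps6 het, Trp53 WT and pool 3 of Rps6 het, Trp53 null are the highest of their genotype for all 5 members.

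The members with the most footprints had ratios nearer the threshold. ENSMUST00000037748.8 had 3822, 3672 and 3643 CPM in RPF and 1526, 1469 and 1442 CPM in RNA in the control pools, with ratios of 2.50, 2.50 and 2.53. Its pools were close together, and its group ratio was 2.51 in control limbs, 2.14 in Rps6 het, Trp53 WT, 2.71 in Rps6 WT, Trp53 null and 2.48 in Rps6 het, Trp53 null. ENSMUST00000069360.13 had a control RPF level of 2836 CPM and group ratios of 2.89, 2.61, 2.83 and 2.78 in the same order. ENSMUST00000020238.13, at 2605 CPM, had group ratios of 2.36, 2.24, 2.55 and 2.39. ENSMUST00000030164.7, at 2172 CPM, varied little, with group ratios of 2.38, 2.31, 2.40 and 2.36. ENSMUST00000174548.7, at 1807 CPM, had 2.88, 2.72, 2.80 and 2.84. Each of these 5 kept a group ratio above 2.1 in every genotype.

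The high ratio was present in all 4 genotypes. In control limbs the choice required it, and in Rps6 het, Trp53 WT the limits on change held the group ratio near it. Only the Trp53 null genotypes had no part in the choice. The lowest ratio of any member in any of the 12 pools was 1.71, so all 200 had a higher CPM in RPF than in RNA in every pool. The members' median ratio was 2.65 in control limbs, 2.48 in Rps6 het, Trp53 WT, 2.58 in Rps6 WT, Trp53 null and 2.63 in Rps6 het, Trp53 null. The medians of the 3 pools were 2.61, 2.74 and 2.70 in control limbs and 2.40, 2.62 and 2.46 in Rps6 het, Trp53 WT. They were 2.55, 2.66 and 2.62 in Rps6 WT, Trp53 null and 2.57, 2.54 and 2.82 in Rps6 het, Trp53 null, so the pools of the last 2 genotypes overlapped. The other rows had medians between 0.998 and 1.03 in the 4 genotypes. The threshold of 2.33 was met in all 12 pools by 84 members, and in 3 of 3 pools by 151 in control limbs, 96 in Rps6 het, Trp53 WT, 123 in Rps6 WT, Trp53 null and 132 in Rps6 het, Trp53 null. Control limbs chose the members, so nothing is read from their being highest.

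**Figure D3:**
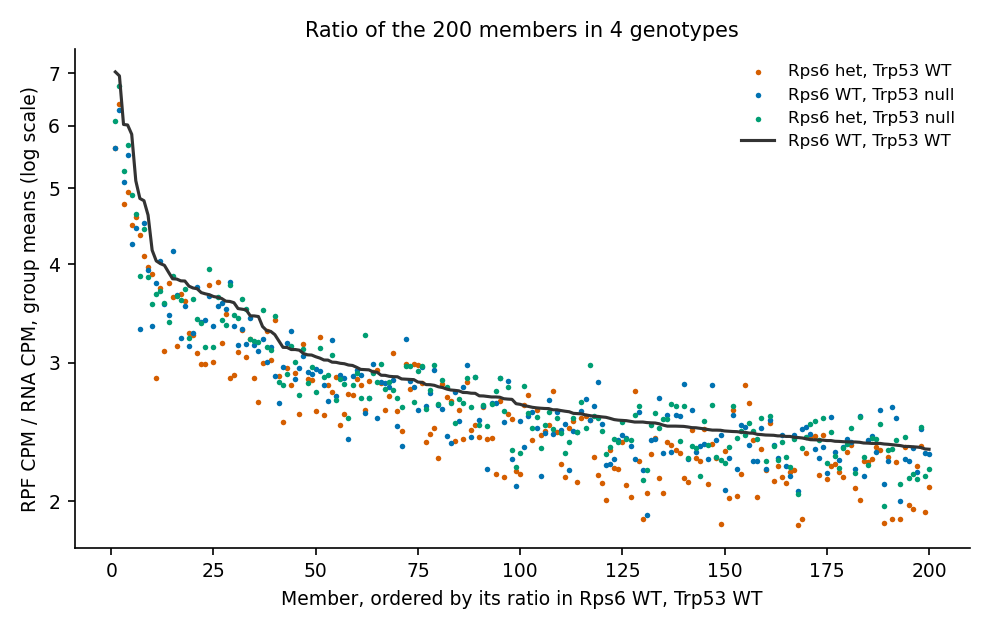
Ratio of group mean RPF CPM to group mean RNA CPM (log axis) for the 200 members in order of their control ratio. The line is Rps6 WT, Trp53 WT, which fixed the order, and points are the other 3 genotypes, which follow the line down to its end at 2.33 with a lowest value of 1.87.

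Members were ranked again by ratio in each genotype. Among the rows that met all limits, 177 members were in the 200 highest ratios of Rps6 WT, Trp53 null, 179 in those of Rps6 het, Trp53 null and 166 in those of Rps6 het, Trp53 WT. The count for Rps6 het, Trp53 WT is no sign of stability, because the limits capped how far a ratio could move there. Within the 400 highest, the counts were 199, 200 and 199 in the same order, and the lowest place of a member was 426, in Rps6 WT, Trp53 null. Ranked among all 6573 transcripts that met the level limits, 94, 94 and 105 members were in the 200 highest, against 89 in control limbs themselves, because these rows include the transcripts outside the limits on change. Spearman's correlation of the ratio across the 200 members was 0.902 between the Trp53 null genotypes, which share no libraries and did not choose the members.

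The limits on change also held the ratio of control limbs close to that of Rps6 het, Trp53 WT, in members and other rows alike, so the range over genotypes was partly fixed by the choice and is given as a description. The range of its log2 group ratio over the 4 genotypes had a median of 0.20, a 90th percentile of 0.33 and a maximum of 0.55. It was under 0.5 in 199 members (99.5%) and in 99.92% of the other rows, whose median range was 0.14. Between pools of a genotype, the SD of the log2 ratio had a median of 0.12 in members and 0.09 in the other rows. Nothing is read from the wider range of members over genotypes, since it includes the control ratio for which they were chosen: 117 of 200 members had their highest ratio in control limbs, against 19.99% of the other rows. Members had a lower median RNA level than the other rows, and its part in the larger SD between pools was not tested.

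The widest range, 0.55, belonged to ENSMUST00000091751.2, a weakly expressed member with 8.11, 7.81 and 8.06 CPM in RNA and 38.1, 41.6 and 36.6 CPM in RPF in the control pools. Its group ratio was 4.85 in control limbs, 4.36 in Rps6 het, Trp53 WT, 3.31 in Rps6 WT, Trp53 null and 3.87 in Rps6 het, Trp53 null. The pools spread widely, from 3.75 to 5.91 within Rps6 het, Trp53 WT. ENSMUST00000003710.9 had a range of 0.49, with group ratios of 4.04, 2.87, 3.79 and 3.66 in the same order. Its pools in Rps6 het, Trp53 WT (2.71, 3.00 and 2.93) lay below all pools of the other genotypes. ENSMUST00000037248.9 had a range of 0.47, with group ratios of 2.36, 1.90, 2.64 and 2.33, and its pools in Rps6 het, Trp53 WT (1.95, 1.85 and 1.90) were again the lowest. These members are shown for their wide range, which favours a genotype whose pools lie apart. Nothing is therefore read from pools that do not overlap. At the other end, ENSMUST00000028059.8 had group ratios of 2.92, 2.92, 2.99 and 2.91. ENSMUST00000029626.8 had 2.72, 2.64, 2.64 and 2.65, although its RNA was 34.8 CPM in control limbs and 30.9 CPM in Rps6 het, Trp53 WT: its RPF was lower there too, at 81.5 against 94.7 CPM. ENSMUST00000167201.1 had 2.96, 2.86, 2.94 and 2.91.

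The members' RNA moved together from pool to pool, while their RPF medians moved far less. As the median over members of log2 CPM minus the mean of the genotype, RNA stood at -0.11 in pool 3 of Rps6 het, Trp53 null, where 165 of 200 members were below the mean, and at -0.09 in pool 2 of Rps6 het, Trp53 WT, where 164 were. It was highest, at 0.08, in pool 1 of Rps6 het, Trp53 null. RPF medians of the members lay between -0.01 and 0.02 in all 12 pools, and RNA medians of the other rows between -0.02 and 0.02. The 20 members with the highest control ratio deviated further, with RNA at -0.24 in pool 3 of Rps6 het, Trp53 null and at -0.18 in pool 2 of Rps6 het, Trp53 WT, and 20 of 20 below the mean in each. RPF medians of these 20 lay between -0.043 and 0.035, both in Rps6 het, Trp53 null. In its pool 2, at -0.043, 16 of 20 were below the mean, and in its pool 1, at 0.035, 5 of 20 were. Transcript length and base composition were not used here, and the cause was not tested.

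**Figure D4:**
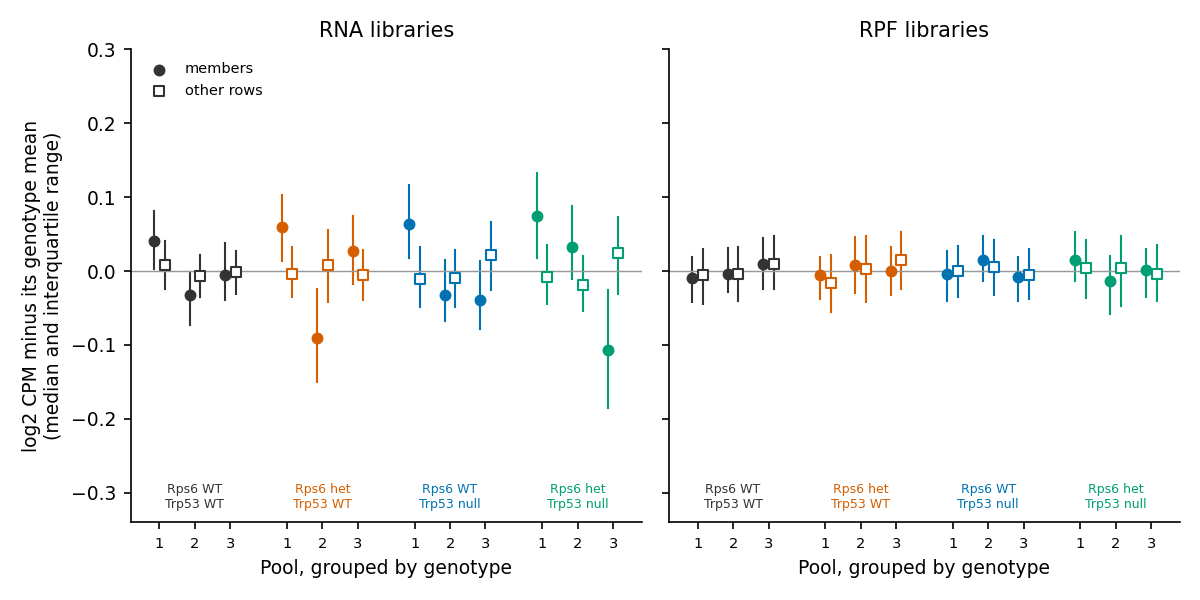
Median (symbol) and interquartile range (line) of log2 CPM minus its genotype mean in each pool, for the 200 members (filled circles) and the 4797 other rows (open squares), RNA libraries left and RPF libraries right. Members' RNA is lowest in pool 3 of Rps6 het, Trp53 null (-0.11) and pool 2 of Rps6 het, Trp53 WT (-0.09), while RPF medians stay between -0.01 and 0.02.

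Deleting 1 Rps6 allele in the absence of Trp53 is the comparison in which none of the 6 pools had a part in choosing the members. All 200 members changed by less than 0.5 on the log2 scale in RNA, RPF and their difference, and 195 of 200 changed by less than 0.25 in RNA and 199 in RPF. Small changes were not particular to members: over all transcripts the quartiles were -0.092 and 0.073 in RNA and -0.075 and 0.076 in RPF. In RNA, edgeR's quasi-likelihood test with Benjamini-Hochberg adjustment over all transcripts called 0 members at an adjusted p under 0.05, against a background of 0.0694% of 14411 transcripts, and DESeq2 called 0 as well. At an unadjusted p under 0.05 there were 17 members, 8.5% against 11.3% of all transcripts and 14.4% of those that met the level limits. The members' median RNA change was -0.05, against -0.01 for all transcripts, and 148 of 200 were below 0 (74%, against 51.7% of all and 48.5% at the level limits). This rests on 1 library: without pool 3 of Rps6 het, Trp53 null the median was 0.01 with 88 below 0. Without pool 1 of Rps6 WT, Trp53 null the median was -0.02 with 118 below 0.

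In RPF, 1 of 200 members (0.5%) was called, against a background of 0.906% of 12147 transcripts and 1.55% of those that met the level limits. At an unadjusted p under 0.05 there were 27 members, 13.5% against 12% of all transcripts and 15.8% of those that met the level limits. The called member was ENSMUST00000028341.10, 13th by control ratio. Its RPF level was 314.4, 311.5 and 297.0 CPM in Rps6 WT, Trp53 null and 284.5, 253.4 and 271.3 CPM in Rps6 het, Trp53 null, so the groups did not overlap. The log2 fold change was -0.18 (SE 0.04, edgeR adjusted p = 0.0197, n = 3 per group). The call was lost when pool 1 or 2 of Rps6 WT, Trp53 null or pool 2 or 3 of Rps6 het, Trp53 null was left out (edgeR adjusted p = 0.127, 0.107, 0.127 and 0.0716). Its RNA was 91.6, 85.2 and 81.8 CPM against 79.5, 83.1 and 63.7 CPM, which overlapped. In the Trp53 WT genotypes, used in the choice, its RPF was 302.9, 307.3 and 306.0 CPM against 260.6, 267.9 and 265.8 CPM with Rps6 het. The members' median RPF change was -0.01, against 0.00 for all transcripts.

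Translational efficiency, tested as the RPF change minus the RNA change in 1 model of all 24 libraries, gave 0 called members by edgeR and 0 by DESeq2, against a background of 0.199% of 14080 transcripts. At an unadjusted p under 0.05 there were 8 members, 4% against 5.47% of all and 7.18% of those that met the level limits. The smallest edgeR adjusted p of a member was 0.534. The median change was 0.05, against 0.00 for all transcripts. It was -0.02 without pool 3 of Rps6 het, Trp53 null and 0.00 without pool 1 of Rps6 WT, Trp53 null, so its sign also turned on 1 pool.

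**Figure D5:**
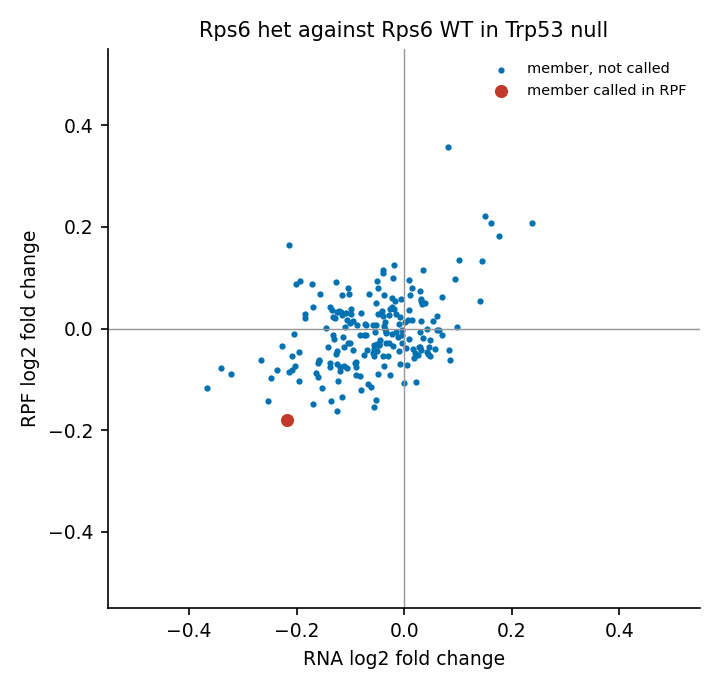
RPF log2 fold change against RNA log2 fold change of the 200 members for Rps6 het against Rps6 WT in the Trp53 null background, 3 pools per group. All points lie within 0.5 of 0 on both axes, and the 1 member called in RPF (red) is ENSMUST00000028341.10, at -0.18 in RPF and -0.22 in RNA.

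Loss of Trp53 with Rps6 intact shares its control libraries with the choice of members. By edgeR, 0 members were called in RNA (background 0.118%), 0 in RPF (background 0.0741%) and 0 in translational efficiency (background 0%), and DESeq2 called 1, 0 and 0. At an unadjusted p under 0.05 there were 49 members in RNA (24.5% against 14.8% of all transcripts), 45 of them higher in Trp53 null (background 8.1%). There were 11 in RPF (5.5% against 4.07%) and 19 in translational efficiency (9.5% against 5.19%). Among the transcripts that met the level limits, the shares were 19.5% in RNA, 3.7% in RPF and 6.82% in translational efficiency. Without pool 1 of Rps6 WT, Trp53 null, the counts of members were 12 in RNA and 2 in translational efficiency. With any other pool left out they were 25 to 52 and 9 to 26, so both counts leaned on that pool. The median change of members was 0.10 in RNA, 0.01 in RPF and -0.10 in translational efficiency, against 0.00, 0.00 and -0.01 for all transcripts. Since the members were picked for a low RNA level relative to footprints in these control libraries, no direction is read from these medians.

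Loss of Trp53 in Rps6 het limbs shares the Rps6 het, Trp53 WT libraries with the limits on change. In RNA, edgeR called 20 members (10%), all lower in Trp53 null, against a background of 13.3% called and 7.11% called lower, and 16.3% called of the transcripts that met the level limits. In RPF it called 23 (11.5%), 9 higher and 14 lower, against a background of 15.1% called, 6.94% higher and 8.13% lower, and 20.9% called of those that met the level limits. Nothing is read from these shares against the background, because transcripts with a larger change in Rps6 het, Trp53 WT limbs could not be members. The RNA count was 10 without pool 1, and 13 without pool 3, of Rps6 het, Trp53 WT, and 12 without pool 3 of Rps6 het, Trp53 null. Leaving out that last pool, in which members' RNA stood lowest, also moved the members' median RNA change from -0.07 to -0.01 and the number below 0 from 150 to 104, and 1 of the 12 called was then higher. With all pools, 75% of members were below 0 in RNA, against 50.7% of all transcripts and 54.9% of those that met the level limits. The RPF count was 9 without pool 1 and 12 without pool 2 of Rps6 het, Trp53 WT, and 14 without pool 1 and 12 without pool 3 of Rps6 het, Trp53 null. In translational efficiency 0 members were called by edgeR (background 0.163%), and the smallest edgeR adjusted p was 0.05002. At an unadjusted p under 0.05 there were 27, 13.5% against 6.22% of all and 8.53% of those that met the level limits. Without pool 3 of Rps6 het, Trp53 null there were 13, and 19 to 35 with any other pool left out. Leaving out that pool 3 also moved the members' median change from 0.059 to 0.001. With the RPF and RNA library of a pool joined as a block, 3 were called, and DESeq2 called 4.

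Over RNA and RPF together, the 2 called members that rose and the 2 that fell with the smallest p are given, and both that fell had that p in RNA. These 4 kept that call in each of the 5 other fits and 6 fits with 1 pool left out. RNA of ENSMUST00000090413.5 was 57.5, 56.4 and 57.7 CPM in Rps6 het, Trp53 WT and 42.3, 45.6 and 47.6 CPM in Rps6 het, Trp53 null, and fell by 0.37 on the log2 scale (SE 0.06, edgeR adjusted p = 0.000456). The groups did not overlap, and control limbs, at 51.3, 46.8 and 48.8 CPM, lay between the means of both. It was also among the 14 members called lower in RPF, with 125.0, 119.3 and 126.8 CPM against 116.2, 112.9 and 116.5 CPM, a log2 difference of -0.15 with an SE of 0.05 (edgeR adjusted p = 0.0234). RNA of ENSMUST00000037248.9 was 56.4, 58.2 and 59.2 CPM against 46.0, 49.5 and 49.6 CPM, and fell by 0.29 (SE 0.05, edgeR adjusted p = 0.00108), while its RPF was 109.9, 107.7 and 112.4 CPM against 118.2, 112.5 and 107.8 CPM and overlapped.

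Footprints of ENSMUST00000069360.13, second of all members in RPF level, rose from 2648, 2705 and 2700 CPM to 3140, 3204 and 3171 CPM, by 0.20 on the log2 scale (SE 0.03, edgeR adjusted p = 0.000243). The groups lay far apart for their spread, and control limbs had 2769, 2926 and 2813 CPM, between them. Footprints of ENSMUST00000022340.4 rose from 295.4, 301.6 and 287.1 CPM to 355.7, 325.6 and 344.9 CPM, by 0.17 (SE 0.04, edgeR adjusted p = 0.0029). The groups did not overlap, and control limbs had 340.5, 336.1 and 354.3 CPM, within the range of Rps6 het, Trp53 null.

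For Rps6 het against Rps6 WT with Trp53 intact, the comparison that the limits on change used, the values are given only as a description. By edgeR, 42 members (21%) were called in RNA (background 24.8%), 43 (21.5%) in RPF (background 24.9%) and 5 (2.5%) in translational efficiency (background 1.17%). Among the transcripts that met the level limits, the shares called were 31.2% in RNA, 33.2% in RPF and 2.33% in translational efficiency. The median change was 0.13 in RNA, 0.00 in RPF and -0.11 in translational efficiency. Nothing is read from these counts, because the choice of members capped the changes and favoured a low control RNA level.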

How the data were processed

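Ribosome-protected fragments and rRNA-depleted RNA of 12 pools were sequenced. The authors deposited 1 table of raw counts per transcript, with RPF counted over the coding sequence and RNA over the transcript by the table's name. Bowtie2, UMI-tools and the builds GRCm38 and mm10 are named in the submitters' processing notes, without roles, and the versions and the annotation are not given in the sources used here. Since how molecular identifiers were used is not stated, counting errors and floors cover counting error only.

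Members and lists were chosen with earlier results of these data known. CPM used library totals. The test was the quasi-likelihood F test of edgeR 4.0.16, run in R 4.3.3 (glmQLFit and glmQLFTest, filterByExpr with a minimum count of 10 and a minimum total of 15, TMM within each library kind), fitted over all transcripts and all 4 genotypes, with p-values adjusted by Benjamini-Hochberg and a call under 0.05. Translational efficiency was the RPF change minus the RNA change in 1 model. It had no term for the pool that an RPF and an RNA library share, and the pool as a block was an alternative. The fits were tested on simulated data with planted changes larger than those of the called members, so the power to call changes this small was not tested. Alternatives were DESeq2 1.42.0, its size factors, no filter, only the 2 genotypes compared, blocks and each pool left out. Replicates of a group differed by more than sampling noise (chi-square per degree of freedom 1.78 to 17.1), and p-values measure the spread between pools.

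Named members were the 5 highest in ratio and in RPF, those beside the threshold, the 3 widest and 3 narrowest ranges and, for each comparison, at most 2 called that rose and 2 that fell with the smallest p. Planned lists of genes and cell type markers were not used, since the IDs are not paired with names, and no sequence is given for the same reason. The RPF and RNA library of a pool come from the same lysates: deviations from their group means correlated at 0.112 to 0.384 over the 12 pools, so the pool can serve as a block for translational efficiency.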

Additional observations from a re-analysis of the deposited data

How the results depend on the processing

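Over 17 results and 127 alternatives, 101 values stayed within 1.5 times the value reported or within the spread of pools and 26 did not. No called member shared between fits changed sign. For Trp53 null against WT in Rps6 WT, members called in RNA were 4 with no filter, 1 by DESeq2 and 6 with only the 2 genotypes compared, against 0. For Trp53 null against WT in Rps6 het, they were 12 with only the 2 genotypes and 10 to 22 with 1 pool left out, against 20 in RNA, and 10 and 9 to 20 against 23 in RPF. In translational efficiency they were 2 with no filter and 4 by DESeq2, against 0. For Rps6 het against WT in Trp53 null, members called in RPF were 6 with no filter, 3 by DESeq2, 2 with only the 2 genotypes and 0 to 3 with 1 pool left out, against 1. The cause of these differences was not tested. Members among the 200 highest ratios were 166, 177 and 179 in place of 105, 94 and 94 (Rps6 het, Trp53 WT, then both Trp53 null genotypes) when ranked rows also had to meet the limits on change, since fewer rows were ranked. Chosen again, 175 members returned with TMM-scaled CPM, 199 with the mean log2 ratio of pools and 175 to 180 with 1 control pool left out.

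Pools that share a number across genotypes hold different embryos. Their deviations correlated at -0.19 to 0.135 in RNA (mean 0.038) and -0.135 to 0.1 in RPF (mean 0.001). Pools of different numbers had a mean of -0.019 in RNA and 0 in RPF. Correlations this weak cannot settle whether the numbers paired the pools. In each library kind 5 of 12 libraries correlated best with their own of the 3 numbers. With the replicate number as a block, 32 members were called in RNA for Trp53 null against WT in Rps6 het, and 4 in RPF for Rps6 het against WT in Trp53 null. With the pool as a block, 3 were called in translational efficiency for Trp53 null against WT in Rps6 het, and no other count of called members in translational efficiency moved. At an unadjusted edgeR p under 0.05, the block gave 13 members against 8 for Rps6 het against WT in Trp53 null. It gave 35 against 19 for Trp53 null against WT in Rps6 WT, and 41 against 27 in Rps6 het. The share of all transcripts at that p was not taken for these fits.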
